A study of Arabidopsis thaliana with 16 samples.

Results

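Cytosolic ribosomal proteins form the ribosome together with ribosomal RNA, and the genes described here are 36 nuclear genes that encode them, 23 for the large and 13 for the small subunit. They were taken by their locus codes from the 27655 genes in the expression files, and all 36 passed the filter on low values, as did 17498 genes in all. The values come from RNA sequencing of whole germinating Arabidopsis seeds labelled *sweet1*, in the Col-0 background, a T-DNA insertion line of the sugar transporter gene *SWEET1*, and the control seeds carry the same label. After 3 d of cold imbibition and 24 h at 22 °C under constant light, seeds were moved to liquid Murashige and Skoog medium for 6 h with 60 mM glucose (Glc), with 5 µM abscisic acid and 60 mM Glc (ABA + Glc), with 5 µM abscisic acid (ABA) or with neither (control), and were collected at 30 h after imbibition. Each treatment had 4 biological replicates, which makes 16 libraries. WT seeds were not analysed here. *SWEET1* was read at 8.29 to 17.6 TPM in all 16 libraries, although the line is described as a null mutant. Where in the gene those reads fall, before or after the T-DNA, cannot be seen from 1 value per gene, and the levels are therefore no check of the label.

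Each ribosome holds a single copy of most ribosomal proteins, and in plants nearly every protein is encoded by a small family of paralogues on different chromosomes. Making ribosomes is among the largest costs of a growing cell. Germinating seeds start translation from stored ribosomes and messages and then make new ones, ABA holds germination back, and Glc is a well-known signal for growth through the TOR kinase. The telo-box and site II are short elements known to recur in Arabidopsis promoters of these genes.

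The seeds answered ABA strongly, while 35 of the 36 ribosomal protein genes were called in no comparison. *RAB18*, an ABA-induced dehydrin gene, held 578 to 721 TPM (the unit of the files, an abundance scaled to transcript length) with ABA + Glc and 1111 to 1259 TPM with ABA, against 69.7 to 180 TPM in the control. Of all genes tested, ABA raised 10.4% and lowered 13.3%. Highly expressed genes were called less often. Of the 318 genes with a mean of at least 500 TPM, which include most of the 36, ABA raised 18 and lowered 17. Against the control, Glc raised 13 and lowered 10 of these 318, and ABA + Glc raised 12 and lowered 11. Whether the 36 were called less often than genes of their level was not tested. Of the 36 ribosomal protein genes ABA raised 0 and lowered 1, *RPS21B*, and neither Glc nor ABA + Glc raised or lowered any. A gene was called at a Benjamini-Hochberg adjusted p under 0.05 over all genes tested and a log2 fold change of at least 0.289 (1.22-fold) in either direction, in limma on log2(TPM + 0.5). The test used 14 libraries, since the libraries tested in the study lack ABA replicate 3 and ABA + Glc replicate 3, and values of these are printed but are not in the fits or means unless stated. All values are from bulk seeds, so fewer cells of a type and less RNA per cell cannot be told apart.

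The genes were among the most highly expressed of the seed. Their mean level in the control ranged over 41-fold between *RPL10B* (76.3 ± 4.50 TPM, SD, n = 4) and *RPL19A* (3130 ± 110 TPM, SD, n = 4), and since TPM is per length, genes can be set beside each other. In the control 34 of the 36 were over 500 TPM and 28 over 1000 TPM. Ranked by control mean among 27445 nuclear genes, 18 were in the top 100 and 32 in the top 200, with *RPL19A* at rank 6 and *RPL10B* at rank 2119. Together the 36 made up 4.94 to 5.22% of the library sum with Glc, 4.60 to 5.10% with ABA + Glc and 4.88 to 5.01% with ABA, against 5.05 to 5.32% in the control, over all 16 libraries.

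**Figure D1:**
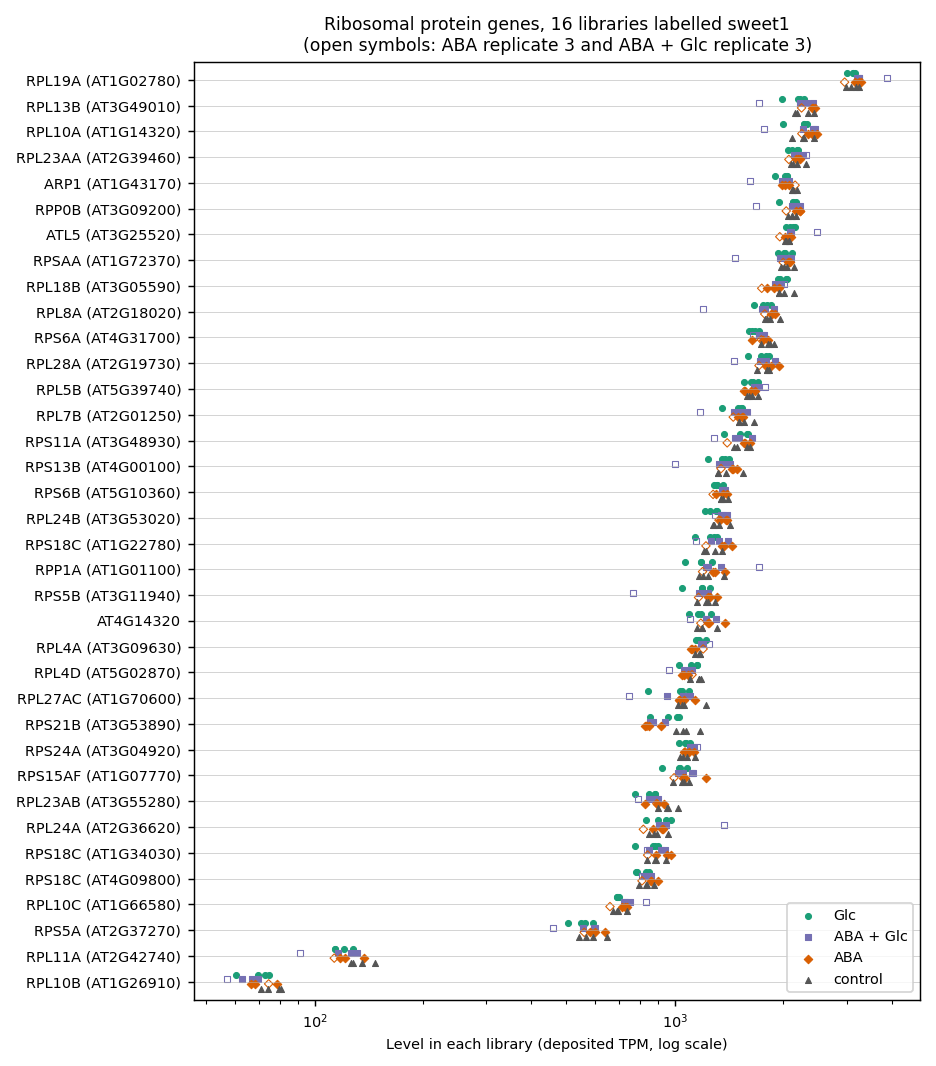
Level of each of the 36 ribosomal protein genes in each of the 16 libraries (x axis, deposited TPM on a log scale), sorted by control mean. Colours and symbols mark the treatment, and open symbols are ABA replicate 3 and ABA + Glc replicate 3. The treatments lie on top of each other for most genes, *RPL19A* stands above and *RPL11A* and *RPL10B* stand below the rest, and ABA + Glc replicate 3 often lies apart.

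*RPL19A* (AT1G02780), which encodes protein L19 of the large subunit, held 3002, 3175, 3130 and 3126 TPM in Glc replicates 1 to 4, 3239, 3205, 3895 and 3242 TPM in those of ABA + Glc and 3297, 3168, 2963 and 3253 TPM in those of ABA, against 3179, 3095, 3251 and 2996 TPM in the control. Next in order was *RPL13B* (AT3G49010, L13, large subunit), with 2232, 2195, 2285 and 1991 TPM with Glc, 2312, 2228, 1714 and 2415 TPM with ABA + Glc and 2447, 2414, 2250 and 2406 TPM with ABA, against 2155, 2343, 2438 and 2186 TPM in the control. The libraries of *RPL19A* did not overlap those of *RPL13B* in the control. Among the 35 neighbours in the order of control means, the libraries overlapped in 30, so most neighbouring places are within the spread between replicates. Genes further apart in the order were not compared in this way. The steps without overlap lay at the top, below *RPL19A*, and at the bottom, below the *RPS18* gene AT4G09800 (837 ± 33.0 TPM), *RPL10C* (699 ± 26.2 TPM), *RPS5A* (588 ± 46.1 TPM) and *RPL11A* (134 ± 9.52 TPM). *RPL11A* (AT2G42740), for a protein that joins the 5S RNA particle of the large subunit with L5, held 128, 114, 121 and 114 TPM with Glc, 126, 116, 91.3 and 131 TPM with ABA + Glc and 118, 122, 113 and 137 TPM with ABA, against 126, 135, 147 and 128 TPM in the control. The treatments overlapped the control in this gene too.

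The replicates were tight, which sets how small a change could be seen. The median coefficient of variation of the 36 genes was 5.63% among Glc libraries, 3.22% among the 3 ABA + Glc libraries and 2.99% among the 3 ABA libraries, against 4.54% in the control, with 6.95 to 7.97% for the median of all genes tested. The files hold no read counts, so the depth behind a value is unknown and its precision rests on the replicates.

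The promoters were read from 250 bases before to 50 bases after each annotated gene start in TAIR10.1, from RefSeq. The telo-box (AAACCCTA on either strand) occurred in 18 of the 36 windows (50%), against 6.22% of 27443 windows of nuclear genes, and site II (TGGGCC or TGGGCT on either strand) in 28 (77.8%), against 21.7%. Both occurred in 14 (38.9%), against 2.20%. The core of the ABA-responsive element (ACGTG on either strand) occurred in 8 (22.2%), against 26.7%, and at 3 places in the window of *RPL23AA*, where a match on both strands at 1 place is counted once. The motifs can share end letters with one another, and no match says only that these letters are not in the window. Neither telo-box nor site II was present for *RPL23AA*, *RPS5A*, *RPS13B* and *RPS21B*. The windows printed here are those of the gene called with ABA, of a gene with many elements, and of the genes with the highest and the lowest level, each 5′ to 3′ on the strand of its gene, with telo-box and site II in capitals.
*RPS21B*, the called gene, no element, chr3:19956400-19956699, minus strand: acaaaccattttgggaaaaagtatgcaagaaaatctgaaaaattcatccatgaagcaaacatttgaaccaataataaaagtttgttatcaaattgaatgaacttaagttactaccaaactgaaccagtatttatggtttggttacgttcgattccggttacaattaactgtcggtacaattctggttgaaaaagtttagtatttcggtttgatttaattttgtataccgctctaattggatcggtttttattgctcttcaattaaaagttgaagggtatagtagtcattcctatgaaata
*RPL24B*, 1 telo-box and 5 site II, chr3:19661976-19662275, minus strand: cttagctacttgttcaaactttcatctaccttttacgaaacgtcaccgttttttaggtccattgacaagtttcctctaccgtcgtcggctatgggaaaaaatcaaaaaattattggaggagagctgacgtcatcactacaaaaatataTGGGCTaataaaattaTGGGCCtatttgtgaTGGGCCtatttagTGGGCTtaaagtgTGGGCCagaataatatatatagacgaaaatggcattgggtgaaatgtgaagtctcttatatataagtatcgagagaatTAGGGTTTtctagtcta
*RPL19A*, the highest level, 2 site II, chr1:609485-609784, minus strand: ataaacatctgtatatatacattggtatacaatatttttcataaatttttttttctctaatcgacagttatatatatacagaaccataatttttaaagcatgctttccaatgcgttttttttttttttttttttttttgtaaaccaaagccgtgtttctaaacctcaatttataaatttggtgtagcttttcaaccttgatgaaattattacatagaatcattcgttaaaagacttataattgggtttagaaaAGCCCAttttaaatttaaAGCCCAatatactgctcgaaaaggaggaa
*RPL10B*, the lowest level, 2 site II and 1 ABA-responsive core, chr1:9321400-9321699, plus strand: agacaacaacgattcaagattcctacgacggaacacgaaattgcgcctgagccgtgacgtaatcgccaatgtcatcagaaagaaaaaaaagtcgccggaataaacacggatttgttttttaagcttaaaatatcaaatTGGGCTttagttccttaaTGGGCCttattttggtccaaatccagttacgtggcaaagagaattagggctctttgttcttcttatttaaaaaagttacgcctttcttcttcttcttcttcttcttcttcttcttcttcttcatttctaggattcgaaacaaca
The windows of *RPL19A* and *RPL10B*, 41-fold apart in level, both held 2 site II elements and no telo-box.

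With Glc alone, 0 of the 36 genes were raised and 0 lowered, against 1.14% and 2.95% of all genes tested (limma, Benjamini-Hochberg). At an unadjusted p under 0.05, 0 were higher and 5 lower, against 10% and 12.1% of all genes tested. The estimates ran between −0.18 and 0.036 on the log2 scale, with a median of −0.047, against −0.003 for all genes. They were below 0 for 33 of the 36, and for 21 of the 36 with library sums made equal, where the median was −0.010, against 0.032 for all genes. The median of the 36 thus lay below that of all genes under both scalings, while the number of estimates below 0 depended on the scaling. The 95% interval of the change lay inside the limits of 0.289 on both sides for 34 genes (94.4%), against 50.5% of all genes tested. It did so for 84.9% of the 318 genes with a mean of at least 500 TPM, a set that includes most of the 36. Over all 16 libraries the interval lay inside the limits for 30 of the 36. For each of the 34 genes taken singly, the interval over the 14 libraries thus kept the change with Glc under 1.22-fold.

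Every Glc library was below every control library for 3 genes (8.33% of the 36, against 7.5% of all genes tested), and above for 0 (against 5.75%). These were *ARP1* (AT1G43170), which encodes L3, a protein near the catalytic centre of the large subunit, *RPL23AB* and *RPS6A*. *ARP1* held 2019, 2056, 2047 and 1896 TPM with Glc, against 2135, 2133, 2187 and 2112 TPM in the control (log2 fold change −0.096, SE 0.034, limma adjusted p = 0.108). *RPL23AB* had the lowest estimate of the 36 (log2 fold change −0.18, SE 0.050, adjusted p = 0.0452), past the p threshold and under the fold minimum. *RPS6A* came next to the threshold (−0.13, SE 0.039, adjusted p = 0.054).

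With ABA alone, *RPS21B* was lowered and the other 35 genes were not called. It encodes S21, a protein of the small subunit, and lies on the minus strand at chr3:19955344-19956449 (TAIR10.1). Its ABA replicates 1 to 4 held 847, 828, 838 and 917 TPM, against 1009, 1078, 1178 and 1053 TPM in the control. The ABA + Glc replicates held 870, 852, 861 and 941 TPM, and the Glc replicates 958, 1029, 1016 and 855 TPM. Every library with ABA, with or without Glc, was thus below every control library, while the Glc libraries overlapped the control. The mean was 864 ± 47.3 TPM with ABA (SD, n = 3) and 1079 ± 71.5 TPM in the control (SD, n = 4), which gave −0.32 on the log2 scale (SE 0.066, limma adjusted p = 0.00131). The call was lost without control replicate 3, the highest library (−0.28, adjusted p = 0.00396), where the estimate fell under the fold minimum.

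The paralogue of *RPS21B* was not called. *RPS21C* (AT5G27700), which is not among the 36 and was looked at after the values of *RPS21B* were seen, held 844, 843, 787 and 894 TPM with ABA, against 766, 846, 926 and 811 TPM in the control. Its log2 fold change with ABA was 0.04 (limma adjusted p = 0.673), and its libraries overlapped those of the control. The difference between the changes of these paralogues was not tested.

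**Figure D2:**
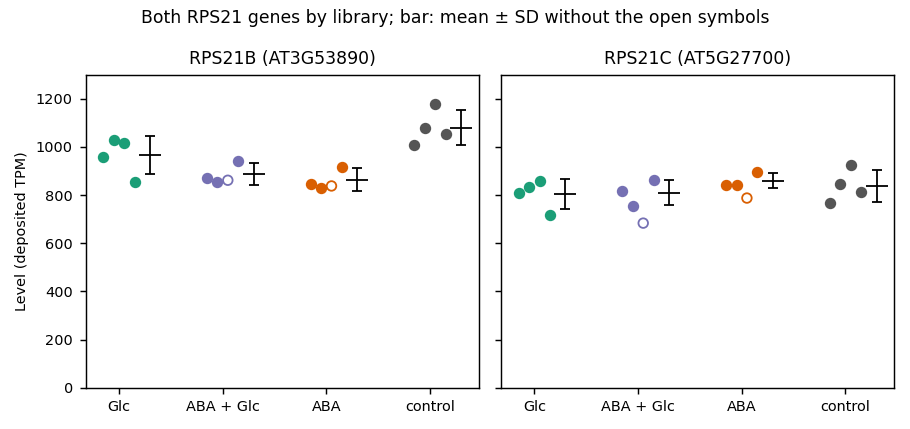
Level of *RPS21B* (left) and *RPS21C* (right) in each library (y axis, deposited TPM, from 0), by treatment. Points are libraries, open points are ABA replicate 3 and ABA + Glc replicate 3, and bars give the mean ± SD of the filled points. The ABA and ABA + Glc libraries of *RPS21B* lie below 1009 TPM, the lowest control library, and those of *RPS21C* overlap the control.

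For the rest of the genes ABA left little room for change. The interval of the change was inside the limits of 0.289 for 35 of the 36 genes (97.2%), against 31.9% of all genes tested and 78.0% of the genes of at least 500 TPM. With equal library sums it was inside for 33. Estimates ran between −0.32 and 0.13 with a median of 0.027 (all genes −0.002) and were above 0 for 23 of the 36, but above 0 for 7 of the 36 (median −0.046, all genes −0.069) when libraries were scaled to the same sum. At an unadjusted p under 0.05, 1 gene was higher and 3 were lower, against 21% and 23% of all genes tested. The highest estimate was that of the *RPS18* gene AT1G22780 (0.13, SE 0.055, limma adjusted p = 0.0765). With no fold minimum, *RPL4D* was also lowered (−0.12, SE 0.043, adjusted p = 0.0493), and of all 17498 genes tested 3265 were lowered. With equal library sums, where the median of all genes was −0.069, more genes passed the p threshold downward under the fold minimum. These were *ARP1*, *RPL4D*, *RPL18B*, *RPL23AB* and *RPS6A* (−0.14 to −0.19, limma adjusted p of 0.0007 to 0.00336). The others were *RPL4A* (−0.12, adjusted p = 0.0133), *RPS6B* (−0.083, adjusted p = 0.0344) and *RPL11A* (−0.17, adjusted p = 0.0383). The share of all genes that passed in this way is not given here. Every ABA library in the fit was below every control library for 3 genes, *ARP1*, *RPL4D* and *RPS21B* (8.33%, against 20.6% of all genes tested), and above for 0 (against 19.2%).

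**Figure D3:**
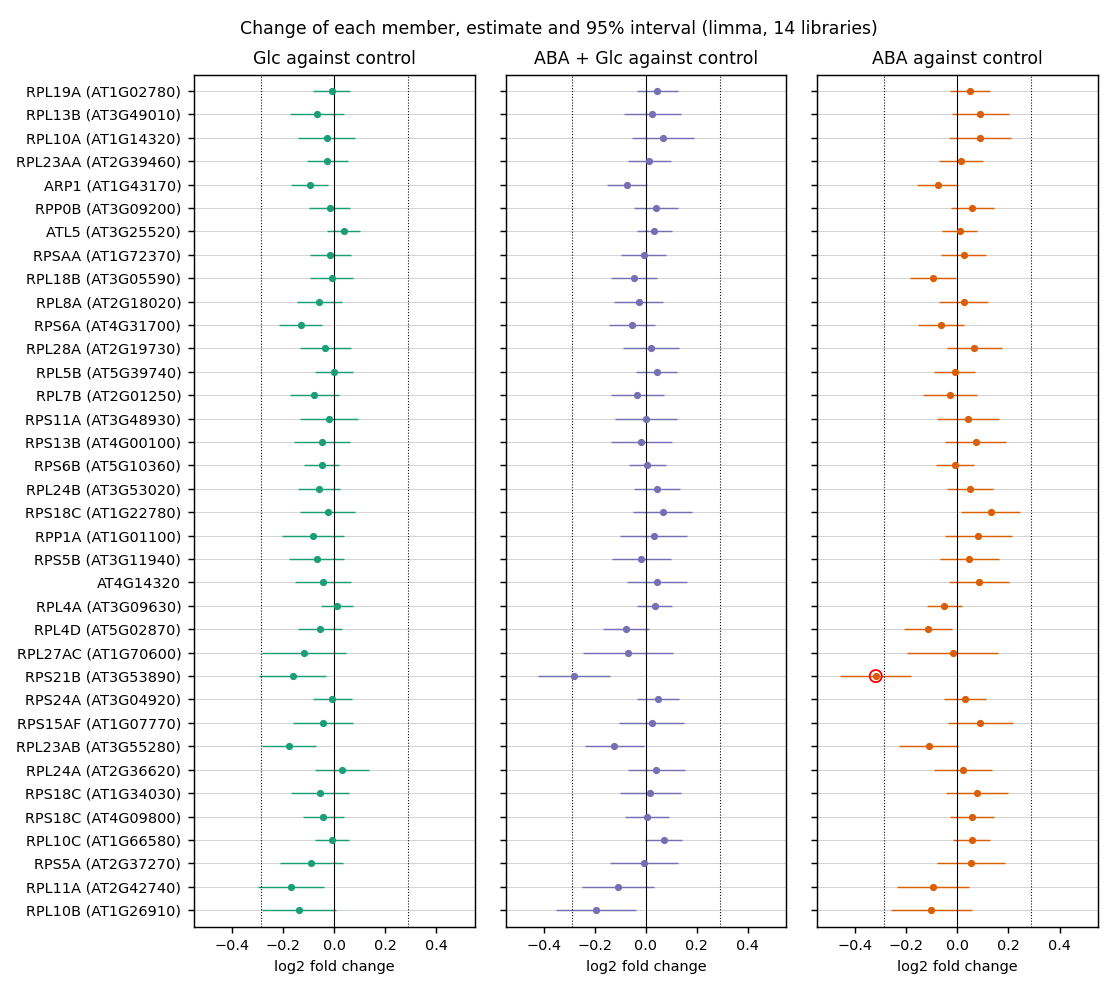
Log2 fold change of each gene (points) with its 95% interval (lines) for Glc, ABA + Glc and ABA against the control, in limma over 14 libraries, sorted by control mean. Dotted lines mark the fold minimum of 0.289 on each side, and a red ring marks the 1 gene called, *RPS21B* with ABA. Nearly all intervals lie between the dotted lines, 34 with Glc, 34 with ABA + Glc and 35 with ABA.

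With ABA + Glc against the control, 0 of the 36 genes were raised and 0 lowered, against 6.95% and 10.1% of all genes tested (limma). An unadjusted p under 0.05 was reached by 0 genes upward and 3 downward, against 17.3% and 19% of all genes tested. *RPS21B* came close, at −0.28 on the log2 scale (SE 0.066, adjusted p = 0.00505), under the fold minimum. It passed that minimum over all 16 libraries (−0.29), with equal library sums (−0.31), without control replicate 1 (−0.31), without control replicate 4 (−0.29) and without ABA + Glc replicate 4 (−0.32). The interval lay inside the limits for 34 genes (94.4%), against 37% of all genes tested and 81.4% of those of at least 500 TPM, but over all 16 libraries for 24. The median was 0.010 over the 14 libraries and −0.019 with equal library sums (all genes 0.001 and −0.027). Every ABA + Glc library in the fit was below every control library for 4 genes, *ARP1*, *RPL10B*, *RPL23AB* and *RPS21B* (11.1%, against 17.1% of all genes tested), and above for 2, *RPL4A* and *ATL5* (5.56%, against 15.6%).

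Adding Glc to ABA asks whether Glc restores what ABA changed. Between ABA + Glc and ABA, 0 of the 36 genes were raised and 0 lowered, against 0.732% and 1.91% of all genes tested (limma). At an unadjusted p under 0.05, 1 was higher, *RPL4A*, and 0 were lower, against 7.06% and 8.32% of all genes tested. All 36 intervals (100%) lay inside the limits, against 45.8% of all genes tested, and 28 did over all 16 libraries. *RPS21B* differed by 0.040 between ABA + Glc and ABA (SE 0.070, adjusted p = 0.86). The effect of Glc with ABA minus its effect without ABA was called for 0 genes in either direction, against 1.79% of all genes tested with a positive and 1.94% with a negative difference. The largest such estimate was that of *RPS21B* (0.20, SE 0.093, adjusted p = 0.268), and 3 genes were positive and 0 negative at an unadjusted p under 0.05, against 9.58% and 8.44% of all genes tested. Here 32 intervals (88.9%) lay inside the limits, against 24.8% of all genes tested, and 23 did over all 16 libraries. The comparisons share control or ABA libraries, so they are not independent of one another.

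The balance between the subunits overlapped between treatments. The summed level of the small-subunit genes over that of the large-subunit genes was 0.447 to 0.465 with Glc, 0.451 to 0.461 with ABA + Glc and 0.459 to 0.471 with ABA, against 0.453 to 0.468 in the control, over the libraries in the fit. With ABA the median change was 0.013 for the 23 large-subunit genes and 0.047 for the 13 small-subunit genes. With Glc it was −0.045 and −0.049. The summed level of all 36 was 47013 to 51040 TPM with Glc, 49771 to 52396 TPM with ABA + Glc and 50435 to 52745 TPM with ABA, against 49692 to 53861 TPM in the control, so the groups overlapped. As a share of the library sum, the ABA libraries (4.91 to 5.01%) lay below the control libraries (5.05 to 5.32%) without overlap, while the deposited values themselves summed to 1023329 to 1053766 with ABA and to 975845 to 1012836 in the control.

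In 8 families 2 or more paralogues were among the 36, and the share of each within its family is free of the scaling between libraries. Coding sequences of these paralogues were 83.7 to 92.7% identical, and the proteins 92.1 to 100% identical, so reads can match more than 1 copy and their division between copies is an estimate of kallisto. In the L23a family, whose protein sits at the mouth of the tunnel through which new chains leave the ribosome, the shares differed between each treatment and the control. *RPL23AA* (AT2G39460) held 2118, 2193, 2191 and 2059 TPM with Glc, 2201, 2142, 2321 and 2266 TPM with ABA + Glc and 2205, 2175, 2074 and 2221 TPM with ABA, against 2131, 2182, 2320 and 2097 TPM in the control. *RPL23AB* (AT3G55280) held 846, 880, 881 and 777 TPM with Glc, 896, 846, 792 and 888 TPM with ABA + Glc and 893, 825, 892 and 936 TPM with ABA, against 953, 955, 1018 and 900 TPM in the control. The share of *RPL23AA* in their sum was 71.7 ± 0.61% with Glc (SD, n = 4), 71.5 ± 0.41% with ABA + Glc (n = 3) and 71.3 ± 1.1% with ABA (n = 3), against 69.5 ± 0.36% in the control (n = 4). No library in the fit overlapped the control, whose highest share was 70.0%, but ABA replicate 3 had 69.9%. This share was not tested.

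The S6 family encodes the small-subunit protein that S6 kinase phosphorylates downstream of TOR. *RPS6A* (AT4G31700) held 1634, 1672, 1715 and 1610 TPM with Glc, 1755, 1718, 1648 and 1771 TPM with ABA + Glc and 1818, 1634, 1741 and 1760 TPM with ABA, against 1814, 1836, 1887 and 1730 TPM in the control. *RPS6B* (AT5G10360) held 1286, 1313, 1359 and 1312 TPM with Glc, 1349, 1383, 1359 and 1375 TPM with ABA + Glc and 1361, 1302, 1278 and 1398 TPM with ABA, against 1341, 1362, 1407 and 1344 TPM in the control. The share of *RPS6A* was 55.7 ± 0.42% with Glc (SD, n = 4), against 57.1 ± 0.56% in the control (n = 4), without overlap, and the shares with ABA + Glc and ABA overlapped the control.

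Proteins of the L10 family join the large subunit late in its assembly. *RPL10A* (AT1G14320) held 2286, 2288, 2337 and 2000.1 TPM with Glc, 2416, 2274, 1775 and 2453 TPM with ABA + Glc and 2408, 2347, 2254 and 2482 TPM with ABA, against 2115, 2264, 2434 and 2279 TPM in the control. *RPL10C* (AT1G66580) held 691, 699.5, 694 and 692 TPM with Glc, 750, 722, 834 and 728 TPM with ABA + Glc and 729, 738, 661 and 712 TPM with ABA, against 693, 695, 735 and 672 TPM in the control. *RPL10B* (AT1G26910) held 73.0, 74.5, 69.7 and 60.5 TPM with Glc, 67.2, 62.8, 57.1 and 69.7 TPM with ABA + Glc and 66.7, 68.4, 74.5 and 78.4 TPM with ABA, against 74.2, 80.7, 79.5 and 71.1 TPM in the control. It thus gave the smallest share, 2.32 ± 0.11% with Glc, 2.09 ± 0.047% with ABA + Glc and 2.22 ± 0.16% with ABA, against 2.51 ± 0.13% in the control, and its share with ABA + Glc did not overlap the control.

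L4 lines the exit tunnel of the large subunit. *RPL4A* (AT3G09630) held 1147, 1157, 1166 and 1224 TPM with Glc, 1199, 1194, 1246 and 1184 TPM with ABA + Glc and 1142, 1119, 1199 and 1110 TPM with ABA, against 1173, 1140, 1166 and 1178 TPM in the control. *RPL4D* (AT5G02870) held 1155, 1108, 1152 and 1027 TPM with Glc, 1118, 1062, 963 and 1101 TPM with ABA + Glc and 1092, 1046, 1117 and 1058 TPM with ABA, against 1100, 1171, 1180 and 1166 TPM in the control. The share of *RPL4A* was 52.2 ± 0.65% with ABA + Glc (n = 3), above 50.2 ± 1.0% in the control (n = 4) without overlap.

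The L5 proteins carry the 5S RNA into the large subunit. *ATL5* (AT3G25520) held 2041, 2130, 2094 and 2152 TPM with Glc, 2107, 2098, 2488 and 2090 TPM with ABA + Glc and 2079, 2020, 1957 and 2098 TPM with ABA, against 2078, 2022, 2070 and 2036 TPM in the control. *RPL5B* (AT5G39740) held 1559, 1648, 1632 and 1699 TPM with Glc, 1678, 1708, 1778 and 1663 TPM with ABA + Glc and 1667, 1570, 1561 and 1630 TPM with ABA, against 1701, 1610, 1640 and 1590 TPM in the control. The shares of this family overlapped the control in every treatment.

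*RPL24B*, also called *SHORT VALVE1*, is known for its part in translation of messages with upstream reading frames. *RPL24A* (AT2G36620) held 833, 948, 896 and 976 TPM with Glc, 903, 946, 1368 and 906 TPM with ABA + Glc and 927, 871, 818 and 922 TPM with ABA, against 894, 874, 957 and 847 TPM in the control. *RPL24B* (AT3G53020) held 1256, 1306, 1313 and 1215 TPM with Glc, 1363, 1342, 1295 and 1395 TPM with ABA + Glc and 1397, 1339, 1327 and 1383 TPM with ABA, against 1279, 1324, 1422 and 1284 TPM in the control. Shares overlapped the control here as well, but *RPL24A* had 51.4% of the family in ABA + Glc replicate 3, against 39.4 to 41.3% in the other 3 replicates.

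In the small subunit, *RPS5A* (AT2G37270) held 563, 549, 592 and 504 TPM with Glc, 596, 556, 460.3 and 599.7 TPM with ABA + Glc and 583, 601, 561 and 642 TPM with ABA, against 541, 594, 649 and 568 TPM in the control. *RPS5B* (AT3G11940) held 1191, 1191, 1252 and 1049 TPM with Glc, 1221, 1171, 764 and 1240 TPM with ABA + Glc and 1252, 1238, 1164 and 1309 TPM with ABA, against 1151, 1240, 1297 and 1220 TPM in the control. S5 is a protein at the site where messenger RNA leaves the small subunit, and its shares overlapped the control. Symbols are those of the files, and RefSeq gives the names *RPS5A* and *RPS5B* the other way round.

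Protein S18 is encoded by 3 genes that the files all name *RPS18C*, and their proteins are 100% identical. The gene AT1G22780, also called *POINTED FIRST LEAVES*, held 1285, 1255, 1307 and 1140 TPM with Glc, 1324, 1257, 1147 and 1405 TPM with ABA + Glc and 1356, 1372, 1221 and 1439 TPM with ABA, against 1205, 1292, 1357 and 1225 TPM in the control. AT1G34030 held 898, 873, 879 and 775 TPM with Glc, 917, 846, 839 and 939 TPM with ABA + Glc and 953, 885, 841 and 976 TPM with ABA, against 839, 883, 946 and 889 TPM in the control. AT4G09800 held 787, 850, 833 and 780 TPM with Glc, 837, 822, 812 and 859 TPM with ABA + Glc and 859, 856, 811 and 896 TPM with ABA, against 832, 840, 878 and 798 TPM in the control. AT1G22780 gave 43.3 ± 0.50% of the family with ABA + Glc, against 42.4 ± 0.46% in the control, without overlap in the fit. In ABA + Glc replicate 3, however, it gave 41.0%, below the control libraries (41.9 to 42.9%). Its shares with Glc and ABA overlapped the control.

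For the genes not yet given, changes with ABA follow. *RPL18B* gave −0.095 with ABA (SE 0.042, limma adjusted p = 0.0961), and *RPL7B*, *RPL8A*, *RPL27AC*, *RPL28A* and AT4G14320 of the large subunit gave between −0.028 and 0.085. *RPP0B* and *RPP1A*, for acidic proteins of the stalk that receives elongation factors, gave 0.059 and 0.082. In the small subunit, *RPSAA*, *RPS11A*, *RPS13B*, *RPS15AF* and *RPS24A* gave between 0.024 and 0.089 with ABA. None of these was called. With equal library sums *RPL18B* gave −0.17 (limma adjusted p = 0.0007), past the p threshold and under the fold minimum.

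The 16 libraries differed in ways that reached most of the genes at once. Each library was compared with the mean of the other 3 of its group. Control replicate 3 was the highest control library for 32 of the 36 genes, Glc replicate 4 the lowest Glc library for 28 and ABA replicate 3 the lowest ABA library for 27. ABA + Glc replicate 3 stood apart in both directions: it was below the other 3 replicates for 23 genes and above them for 10. Its deviations had an SD of 0.285 over the 36 genes on the log2 scale, against 0.032 to 0.119 in the other 15 libraries, and passed 0.289 for 13 genes downward and 2 upward, against 0 or 1 gene in the others. The lowest were *RPS5B* (−0.66) and *RPL8A* (−0.59) and the highest *RPL24A* (0.58) and *RPP1A* (0.43). Among all genes tested 37.5% passed 0.289 in this library, against 9.29 to 15.4% in the others.

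**Figure D4:**
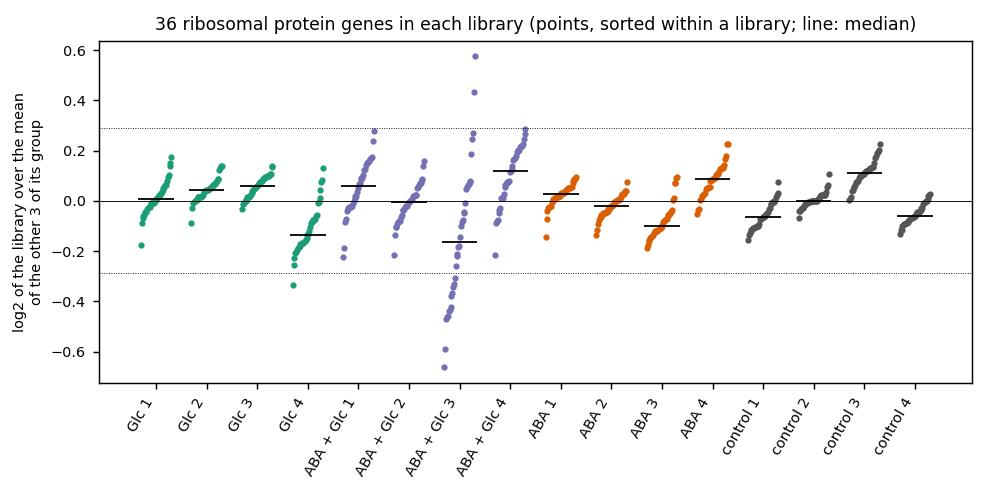
Deviation of each of the 36 genes in each library from the mean of the other 3 libraries of its treatment (y axis, log2), sorted within a library, with the median as a line. Dotted lines mark 0.289 on each side. ABA + Glc replicate 3 spans −0.66 to 0.58, wider than the other 15 libraries, and Glc replicate 4 and ABA replicate 3 lie mostly below 0.

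Of 151 tested genes among 158 other cytosolic ribosomal protein genes of the annotation, Glc lowered 1 (0.662%, against 2.95% of all genes tested) and raised 0. ABA + Glc lowered 6 (3.97%, against 10.1%) and raised 0, and ABA lowered 7 (4.64%, against 13.3%) and raised 0, with a median of 0.012. At an unadjusted p under 0.05, 0 were higher and 26 lower with Glc (against 10% and 12.1% of all genes tested). With ABA 15 were higher and 27 lower (against 21% and 23%), and with ABA + Glc 5 and 17 (against 17.3% and 19%). The effect of Glc with ABA minus its effect without ABA was positive for 6 (3.97%, against 1.79% of all genes tested, and 3 over all 16 libraries) and negative for 0. ABA + Glc against ABA gave 0 calls in either direction over the 14 libraries (limma). In that fit the unadjusted p was under 0.05 for 9 genes upward and 0 downward, against 7.06% and 8.32% of all genes tested. The same comparison raised 3 of the genes over all 16 libraries and 1 with equal library sums. The largest falls with ABA were *RPS27AA* (AT1G23410, a ubiquitin fusion protein of the small subunit; −0.83, SE 0.11, limma adjusted p = 1.63e-05), *RPS8B* (AT5G59240; −0.78, SE 0.13, adjusted p = 0.000291) and *RPL26B* (AT5G67510; −0.55, adjusted p = 2.39e-07). *RPL26B* held 314, 292, 295 and 327 TPM with ABA, against 438, 472, 471 and 441 TPM in the control, without overlap. Both *RPS27AA* (0.59, adjusted p = 0.039) and *RPL26B* (0.38, adjusted p = 0.00447) were among the 6 with a positive difference of Glc effects. *RPS27AA* averaged 26.7 ± 4.34 TPM with ABA (n = 3) and 47.8 ± 5.92 TPM in the control (n = 4), and *RPS8B* 5.03 ± 0.49 and 9.11 ± 1.89 TPM, levels far below most of the 36. In 30 plastid ribosomal protein genes 0 were called in any comparison (limma), and with ABA the unadjusted p was under 0.05 for 13 genes upward and 1 downward, against 21% and 23% of all genes tested. Their median with ABA was 0.080, and 0.008 with equal library sums.

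Of 27 ribosome biogenesis genes, ABA lowered 2 (7.41%, against 13.3% of all genes tested) and raised 0, with a median of −0.12. When libraries were scaled to the same sum 7 were lowered, with a median of −0.19, against −0.069 for all genes. The share of all genes lowered at that scaling is not given here. The 2 called in the unscaled values were *NHP2* (AT5G08180; −0.30, adjusted p = 5.61e-06), a protein of the particles that convert uridines of ribosomal RNA to pseudouridine, and *NOP56* (−0.29, adjusted p = 5.16e-05), a core protein of the particles that methylate it. Over all 16 libraries *NOP56* was under the fold minimum (−0.26). At an unadjusted p under 0.05, 0 of the 27 were higher and 14 lower with ABA, 2 higher and 5 lower with ABA + Glc, and 2 higher and 7 lower with Glc, where limma called 0 in the last 2 comparisons. For ABA + Glc against ABA 11 were higher and 0 lower, and for the difference of Glc effects 14 were positive and 0 negative, with 0 called in either (2 positive calls for the difference over all 16 libraries). The shares of all genes tested at this p are those given for each comparison above. Of 33 translation factors and ribosome-bound scaffold genes, ABA raised 1 (against 10.4% of all genes tested), *ELF5A-3* (0.45, adjusted p = 0.000154), a translation elongation factor, and lowered 2 (against 13.3%), *TIF4A-2* (−0.32, adjusted p = 1.03e-05), an RNA helicase of initiation, and *RACK1C* (−0.30, adjusted p = 0.000133), a scaffold on the small subunit. Over all 16 libraries *RACK1C* was under the fold minimum with ABA (−0.28). ABA + Glc raised 1 (against 6.95% of all genes tested), again *ELF5A-3*, and lowered 0. Over all 16 libraries it lowered 3, among them *TIF4A-2* (−0.38, limma adjusted p = 0.00808) and *RACK1C* (−0.36, adjusted p = 0.0127). *RACK1C* had a positive difference of Glc effects (0.30, adjusted p = 0.0213), against 1.79% of all genes tested. For that difference 0 of the 33 were called over all 16 libraries.

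Whole seeds hold embryo, endosperm and seed coat. Of 4 endosperm genes all were found, with a sum of 1580 to 1670 TPM with Glc, 1600 to 1790 TPM with ABA + Glc and 1370 to 1630 TPM with ABA, against 1290 to 1590 TPM in the control. Of 6 seed coat genes, *TT10* and *BAN* were listed at 0 in all libraries, *PER36* and *TT12* were at or near 0, and the sum was 417 to 439 TPM with Glc, 449 to 465 TPM with ABA + Glc and 401 to 481 TPM with ABA, against 363 to 406 TPM in the control. That sum was nearly all *SBT1.7*, and *MUM2*, the other seed coat gene tested, was lowered with ABA + Glc (−0.37, limma adjusted p = 0.0359, and not called over all 16 libraries) and also with ABA (−0.66, limma adjusted p = 0.000469). Among the endosperm genes *MAN7*, an endo-beta-mannanase gene, was raised in each treatment (limma adjusted p of 1.28e-05 with Glc, 1.73e-10 with ABA + Glc and 2.55e-10 with ABA). It held 28.1 to 30.4 TPM with Glc, 50.1 to 61.4 TPM with ABA + Glc and 46.3 to 53.2 TPM with ABA, against 15.3 to 18.9 TPM in the control. The other endosperm genes, *EPR1*, *EXPA2* and *MAN5*, were not called in any treatment against the control. *EXPA2* made up most of the endosperm sum, with 1146 to 1418 TPM in the control. The 8 seed reserve genes summed to 558 to 1100 TPM with Glc, 2120 to 2580 TPM with ABA + Glc and 2480 to 2860 TPM with ABA, against 418 to 676 TPM in the control. With ABA that sum was mostly *CRA1* (1521 to 1819 TPM) and *OLEO1* (520 to 579 TPM). Of the 8, limma raised 4 with Glc, 6 with ABA + Glc and 3 with ABA, against 1.14%, 6.95% and 10.4% of all genes tested. What these tissues contribute to the values of the ribosomal protein genes was not tested.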

How the data were processed

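RNA was sequenced from 16 libraries of whole seeds labelled *sweet1*, 4 per treatment, grouped by the treatment and replicate number of their labels. The members and the gene lists were chosen with earlier results of these data known. The authors trimmed reads with Trimmomatic 0.38 and quantified primary transcripts with kallisto 0.44.0 and sleuth. In the deposited files the column headed TPM is treated here as a score, because the authors' values summed to 951008 to 1053766 per library. The sources used here do not give the scaling behind that. Without counts the depth is unknown, and the precision rests on the replicates, whose log2 values correlated at 0.981 to 0.992 within a treatment.

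The filter kept a gene with more than 0.5 TPM in 50% or more of the 14 libraries. The model of limma 3.58.1 (R 4.3.3) had 4 group means, log2 values after adding 0.5 TPM, and a prior variance that follows the mean level. A fold change is on that scale and understates the change of low genes. The fold minimum is 0.2 on the natural log scale. The script was tested on simulated data. Every member may be named, with values per library for called members, for those highest and lowest in the control and for families, and up to 3 called genes of each other list with ABA. The other cytosolic ribosomal protein genes were taken from the notes and symbols of the annotation, because its product names cover too few, a rule set after the annotation was seen. The replicate number, the 2 libraries left out, filters on low values, pseudocounts of 0.1 and 1, library sums and each library in turn were among the alternatives.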

Additional observations from a re-analysis of the deposited data

Results flagged for a closer look

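Within a treatment of 4 libraries, a library was singled out where its gap to the nearest of the others, over the range of the 4, passed Dixon's 95% critical value. Over 148 sets of 4 libraries 5 were singled out, and chance singles out about 1 in 20, or 7.4. *RPL10A* was lowest in Glc replicate 4, with 2000.1 TPM. The other 4 were in ABA + Glc replicate 3, where *ATL5* (2488 TPM), *RPL19A* (3895 TPM) and *RPL24A* (1368 TPM) were highest and *RPS5B* (764 TPM) was lowest. These values of ABA + Glc replicate 3 are not in the fits of 14 libraries. Over the 36 genes, the deviations of ABA + Glc replicate 3 and Glc replicate 4 from their own groups correlated at r = 0.61 (0.16 over all 17498 genes tested), a description across genes that share these libraries.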

How the results depend on the processing

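Of 616 values under other settings 577 kept their direction and side of the threshold (counts within 1.5 times), and 0 reversed. With no fold minimum, Glc lowered 1 of the 36 genes, ABA 2 and ABA + Glc 1. Of all 17498 genes tested, Glc then raised 472 and lowered 791. ABA raised 2902 and lowered 3265, and ABA + Glc raised 2015 and lowered 2429. With a mean of at least 10 TPM, which tests fewer genes, ABA raised 1148 and lowered 1270 genes and ABA + Glc raised 770 and lowered 906. With equal library sums Glc raised 310 genes and ABA + Glc lowered 1 of the 36, as it did over all 16 libraries. Over 16 libraries without ABA replicate 3, chosen after seeing the data, ABA + Glc lowered 1 of the 36, Glc raised 129 and lowered 340 genes, and 196 genes had a positive difference of Glc effects. The cause was not tested.

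Replicate numbers did not pair the samples: deviations of same-numbered libraries correlated at −0.06 to 0.12 (1 of 19 over 0.1), those of other numbers at −0.15 to 0.11, and 4 of 14 libraries correlated best with their own number. With the replicate number as a block, ABA lowered 0 of the 36 (*RPS21B* −0.29, limma adjusted p = 0.00438), and no other count of calls moved by over 1.5 times.

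Leaving out each library in turn, ABA lowered 0 to 1 of the 36 (0 without control replicate 3) and ABA + Glc 0 to 1 (1 without control replicate 1, control replicate 4 or ABA + Glc replicate 4). Over all genes, Glc lowered 324 (without control replicate 1) to 518, ABA + Glc raised 66 (without ABA + Glc replicate 1) to 143 and lowered 192 (without ABA replicate 1) to 366 against ABA, and 206 (without ABA + Glc replicate 1) to 335 had a positive difference of Glc effects. ABA + Glc raised 71, 85 and 74 genes against ABA without ABA + Glc replicate 2, ABA + Glc replicate 4 and ABA replicate 2, and lowered 218 without ABA + Glc replicate 1. The adjusted p of *RPS21B* with ABA was 3.12e-05 to 0.00953 over its alternatives, and its log2 fold change −0.39 to −0.28. That of *RPL23AB* with Glc was 0.0287 to 0.121, and that of *RPL4D* with ABA 0.000892 to 0.194.

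The depth is unknown, so a value has no counting interval. Reads of near-identical paralogues were divided by estimate. The sums of the deposited values differ between treatments, and the signs of estimates near 0 depend on that scaling (median with ABA 0.027, and −0.046 with equal sums).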
